A study of Mus musculus with 12 samples.

Results

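Serpins of immune cells were followed by mRNA sequencing in the mouse dendritic line DC2.4 after exposure to extracellular vesicles of T cells. The set comprised 7 mouse genes taken by symbol: Serpina3f (ENSMUSG00000066363), Serpina3g (ENSMUSG00000041481), Serpina3n (ENSMUSG00000021091), Serpinb9 (ENSMUSG00000045827), Serpinb6a (ENSMUSG00000060147), Serpinb6b (ENSMUSG00000042842) and Serpinb2 (ENSMUSG00000062345). They are 7 of 42687 gene identifiers in the count table and 7 of the 68 whose symbols begin with Serpin. The genes were selected on values of these same libraries, in particular the difference of Serpina3f between ATEV and PBS, so member values in that comparison are given as a description without a p-value.

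The 12 libraries formed 4 groups of 3, all of wild-type DC2.4 cells. ATEV are vesicles that activated T cells release, and NTEV those that non-activated T cells release. The groups were cells given 15 µg/mL of ATEV that had first been treated with Baseline-ZERO DNase, an enzyme that degrades DNA, cells given 15 µg/mL of intact ATEV, cells given 30 µg/mL of NTEV, and cells given phosphate-buffered saline (PBS). The vesicle amount of NTEV thus differed from that of ATEV, and a note of 5 µg/mL vesicle DNA in the labels may cover the NTEV dose alone or both. DC2.4 is a single immortalised line grown in serum-containing medium, and the labels leave unclear whether replicate libraries stem from separate cultures or from rounds of treatment of the same cells, so p-values describe how these particular samples vary, possibly for technical reasons. Libraries held 19.4 to 30.4 M counts.

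Serpins are protease inhibitors that act by suicide. A protease cuts an exposed stretch of the serpin, the reactive centre loop, and the inhibitor then snaps into another shape that traps the enzyme in a covalent complex. Members of clade A, such as the Serpina3 genes, are mostly secreted, whereas members of clade B, such as Serpinb6 and Serpinb9, mostly stay inside the cell, where they meet proteases that leak from granules and lysosomes. Mice carry a cluster of Serpina3 genes where humans have a single SERPINA3.

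The cells carried some but not all markers of dendritic cells. Itgax averaged 34.5 CPM (counts scaled to library size) with DNase-treated ATEV, 39.4 CPM with ATEV, 40.2 CPM with NTEV and 16.1 CPM with PBS. Cd24a, on the same list, went the other way, at 20.1 CPM with DNase-treated ATEV, 9.71 CPM with ATEV, 12.2 CPM with NTEV and 65.4 CPM with PBS, and was called lower than PBS with ATEV (log2 fold change -2.75, edgeR adjusted p = 0.000121) and with NTEV (-2.42, edgeR adjusted p = 0.00242). Clec9a had 0 counts in every library, and Flt3, Ccr7 and Xcr1 lay near 0. All 14 macrophage markers listed were expressed at a testable level, Csf1r among them. Of the 16 T cell markers, 5 had 0 counts in every library, Cd3e and Cd8a among them, and the summed level of the list was 8.71 to 18.1 CPM with DNase-treated ATEV, 10.4 to 20.3 CPM with ATEV, 9.62 to 12.5 CPM with NTEV and 7.92 to 10.4 CPM with PBS. Lck made up most of that sum, averaging 11.1 CPM with DNase-treated ATEV, 11.7 with ATEV, 8.99 with NTEV and 7.7 with PBS. Only Lck and Cd5 of that list were tested, and neither was called in any comparison. In a bulk sample, fewer cells of a type and less RNA per cell cannot be told apart. Along the first principal component, with 34.9% of the variance, the first DNase-treated ATEV library (-30.4) and the first NTEV library (-21.5) lay among the PBS libraries (-41.8 to -14.6), so results that change without either are given with that value.

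The start regions of Serpina3f, Serpina3g and Serpinb9 are shown as examples of those that hold matches to elements through which interferon signals act. Gamma-activated sites (GAS), the elements that act in the response to interferon gamma, were searched here as TTCNNNGAA. Interferon-stimulated response elements (ISRE), which act in the response to type I interferon, were searched as GAAA and GAAA with any pair of bases between them. Each sequence is the 250 bases before the annotated start, 5′ to 3′ on the gene's strand, from RefSeq on GRCm38.p6, with the motif match in capitals: a GAS for Serpina3f and Serpina3g, and an ISRE, read on the opposite strand, for Serpinb9.
Serpina3f (chr12:104214294-104214543, plus strand): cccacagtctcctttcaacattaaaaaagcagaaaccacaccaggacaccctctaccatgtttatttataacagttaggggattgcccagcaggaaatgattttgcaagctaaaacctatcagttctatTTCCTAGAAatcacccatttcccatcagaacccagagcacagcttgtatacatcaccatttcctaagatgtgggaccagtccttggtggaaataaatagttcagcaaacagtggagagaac
Serpina3g (chr12:104235897-104236146, plus strand): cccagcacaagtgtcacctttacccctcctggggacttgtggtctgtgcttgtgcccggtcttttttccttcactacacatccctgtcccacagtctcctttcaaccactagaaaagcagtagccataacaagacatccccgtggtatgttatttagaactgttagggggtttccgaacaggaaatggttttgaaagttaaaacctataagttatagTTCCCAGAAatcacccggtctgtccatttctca
Serpinb9 (chr13:33004291-33004540, plus strand): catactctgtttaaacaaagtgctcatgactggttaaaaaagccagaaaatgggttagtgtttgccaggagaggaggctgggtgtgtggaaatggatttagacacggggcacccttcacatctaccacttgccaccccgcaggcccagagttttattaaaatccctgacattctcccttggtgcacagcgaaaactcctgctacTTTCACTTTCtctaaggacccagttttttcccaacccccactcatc
The Serpina3f match, TTCCTAGAA, lay 121 to 113 bases before the start shown, and the Serpina3g match, TTCCCAGAA, lay 33 to 25 bases before its start. From another annotated start of Serpina3f, the same match lay at positions -210 to -202. The Serpinb9 match, TTTCACTTTC, lay 46 to 37 bases before the start. All 7 genes had an entry, with 10 start regions between them, searched on both strands over 300 bases that include the first 50 of the transcript. One of the start regions of Serpinb6a held GAS and ISRE matches that overlapped each other. Both start regions of Serpinb2, which overlap, held the same GAS match. Serpina3n and Serpinb6b held neither motif. Of 32851 mouse start regions of that length, 8.3% held the GAS letters and 3.44% the ISRE letters. NF-kB letters, GGGA and CC with any 4 bases between them, were found in a start region of Serpina3f, Serpina3n and Serpinb6a, and in 20.7% of all start regions. A match is a run of letters and not evidence of binding.

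Serpina3f, a clade A serpin of the mouse Serpina3 cluster, was close to absent except in cells given intact ATEV. It had 3, 0 and 1 counts in the DNase-treated ATEV libraries, against 94, 90 and 118 counts in the ATEV libraries. It had 0 counts in all NTEV libraries and 0 counts in all PBS libraries. The ATEV libraries thus stood above every other library, with no overlap, at 4.86 ± 1.21 CPM (SD, n = 3). Because only the ATEV libraries carried it past the filter on low counts, its entry into the tests depended on the group in which it was high.

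DNase treatment of the vesicles left 4 Serpina3f counts over 3 libraries against 302 with intact ATEV, a ratio of 0.0127 (0.00343 to 0.0328 as the exact 95% interval of the counts). That interval covers counting error only and leaves out the spread between libraries. It is not read as a test, because the gene was listed for its high ATEV counts. Serpina3f with ATEV was 118-fold the floor of 3 counts over the NTEV group. It was 111-fold the same floor over the PBS group, with counting error in the 302 ATEV counts (95% interval 269 to 338) left out of both values. The 4 counts with DNase-treated ATEV were 1.41-fold the floor of 3 counts over the PBS group. No p-value is given for Serpina3f in any comparison, because its high ATEV counts both led to its listing and brought it into the tests. For the other members, comparisons of ATEV with DNase-treated ATEV and NTEV reuse libraries whose values were known when the genes were listed, so those p-values are not independent evidence.

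Serpina3g, also called Spi2A, is an intracellular member of the cluster known to inhibit lysosomal cysteine cathepsins and to protect T cells. It had 0.866, 0.284 and 0.459 CPM with DNase-treated ATEV, against 4.86, 6.59 and 12.2 CPM with ATEV. It had 0.310, 0.120 and 0.348 CPM with NTEV and 0.679, 0.422 and 0.301 CPM with PBS. The lowest ATEV library lay above the highest library of each other group, and the ATEV libraries ranged over 4.86 to 12.2 CPM among themselves. In counts the ATEV libraries held 113, 138 and 230, while no other library held more than 18. Unlike Serpina3f, Serpina3g passed the filter without the ATEV libraries as well.

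Serpina3g was lower with DNase-treated ATEV than with ATEV, by a log2 fold change of -3.87 ± 0.47 (SE; edgeR adjusted p = 0.00101). It was higher with ATEV than with NTEV by a log2 fold change of 4.91 ± 0.51 (edgeR adjusted p = 0.000203). Between ATEV and PBS the log2 fold change was 4.04 ± 0.47. No difference from PBS was called with DNase-treated ATEV (0.18 ± 0.54, edgeR adjusted p = 0.946) or with NTEV (-0.86 ± 0.59, edgeR adjusted p = 0.44). The sign of the difference between DNase-treated ATEV and PBS turned without the first DNase-treated ATEV library (log2 fold change -0.34) and without the third PBS library (-0.07).

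**Figure D1:**
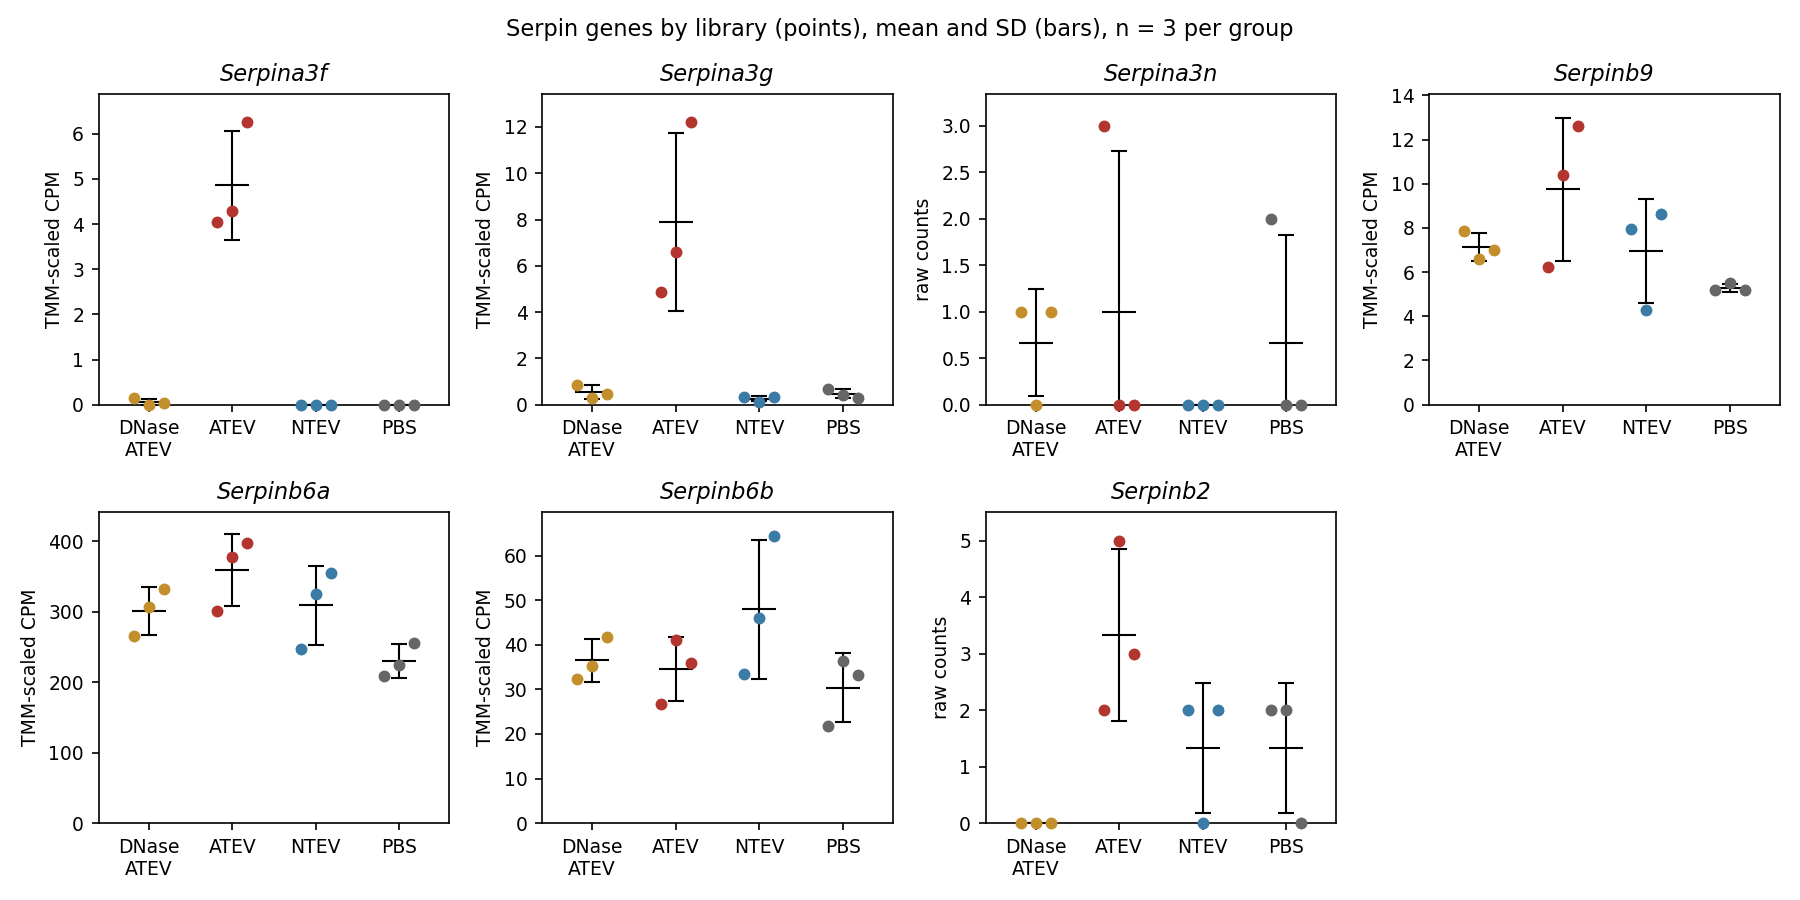
Levels of the serpin genes in each library, in CPM on linear axes, or raw counts for Serpina3n and Serpinb2; groups run from DNase-treated ATEV to PBS, each point is a library, the wide line is the group mean and the whiskers are 1 SD (n = 3). The 3 ATEV libraries of Serpina3f (4.04 to 6.25 CPM) and Serpina3g (4.86 to 12.2 CPM) stand above all others, whereas the groups overlap for Serpinb6b.

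Serpina3f and Serpina3g are near copies, so reads from identical stretches could have been assigned to either. Of the 50-base words in the exons of Serpina3f, 10.6% also occurred in another gene, most often Serpina3g, and for Serpina3g the share was 15.9%, most often Serpina3h. Their coding sequences were 87.4% identical over 744 aligned bases of the transcripts Serpina3f-201 and Serpina3g-201. The 60 aligned coding bases in which they differ most are shown with the 20 differing bases in capitals, since reads from such stretches tell the genes apart. They are bases 1230 to 1289 of the Serpina3f coding sequence and bases 651 to 710 of that of Serpina3g, from GENCODE M21.
Serpina3f: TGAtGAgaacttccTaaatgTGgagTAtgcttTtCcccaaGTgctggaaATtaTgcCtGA
Serpina3g: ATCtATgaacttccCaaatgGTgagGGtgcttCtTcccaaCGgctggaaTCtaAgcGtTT

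A sum over the 14 genes named Serpina3 does not depend on how reads were split between copies. The sum was 44 counts with DNase-treated ATEV, 787 counts with ATEV, 21 counts with NTEV and 40 counts with PBS. Between DNase-treated ATEV and ATEV the log2 fold change of the sum was -4.25 ± 0.47, and between ATEV and NTEV it was 5.46 ± 0.52. No p-value is given for these differences, because the sum includes Serpina3f, whose high ATEV counts led to its listing. Serpina3f made up 9.09% of the Serpina3 counts with DNase-treated ATEV, 38.4% with ATEV, 0% with NTEV and 0% with PBS. Serpina3g made up 79.5%, 61.1%, 90.5% and 82.5% in the same order of groups, and 7 of the 14 genes had no count in any library. These shares depend on how the authors' counting assigned reads common to both copies, which is not known.

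Serpina3n, a secreted member of the cluster known as an acute-phase protein that inhibits granzyme B, was barely detected. It had 1, 0 and 1 counts with DNase-treated ATEV, 3, 0 and 0 with ATEV, 0 in each NTEV library and 2, 0 and 0 with PBS. The ratio of ATEV to PBS was 1.65 (0.190 to 19.8 as the 95% interval), and that of DNase-treated ATEV to ATEV was 0.638 with an interval of 0.0533 to 5.57. No difference was detectable at this depth, and the gene did not pass the filter on low counts.

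Serpinb9, or Spi6, is the intracellular inhibitor of granzyme B that protects cytotoxic T cells and dendritic cells from that enzyme. It had 7.84, 6.58 and 7.01 CPM with DNase-treated ATEV, against 6.24, 10.4 and 12.6 CPM with ATEV. It had 7.97, 4.28 and 8.65 CPM with NTEV and 5.19, 5.49 and 5.17 CPM with PBS. The PBS libraries lay close together at 5.28 ± 0.179 CPM, below all libraries of either ATEV group, while the NTEV libraries lay on both sides of them.

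For Serpinb9, edgeR called no difference in the comparisons whose tests are given. For ATEV against PBS the fold change is given without a test, as for every member. The log2 fold change was -0.44 ± 0.28 between DNase-treated ATEV and ATEV (edgeR adjusted p = 0.456) and 0.48 ± 0.28 between ATEV and NTEV (edgeR adjusted p = 0.46). Against PBS it was 0.88 ± 0.28 for ATEV, 0.44 ± 0.28 for DNase-treated ATEV (edgeR adjusted p = 0.826) and 0.40 ± 0.28 for NTEV (edgeR adjusted p = 0.452). ATEV was therefore highest in mean, and its lowest library, at 6.24 CPM, lay below all 3 libraries with DNase-treated ATEV.

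Serpinb6a, the mouse counterpart of human SERPINB6, an intracellular inhibitor of cathepsin G in humans, was the most abundant of the set. It had 265, 307 and 332 CPM with DNase-treated ATEV, against 301, 378 and 398 CPM with ATEV. It had 247, 325 and 355 CPM with NTEV and 209, 225 and 256 CPM with PBS. The PBS libraries lay below every library with either form of ATEV, but 1 NTEV library, at 247 CPM, fell below the highest PBS library.

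The Serpinb6a log2 fold change was -0.25 ± 0.16 between DNase-treated ATEV and ATEV (edgeR adjusted p = 0.465) and 0.22 ± 0.16 between ATEV and NTEV (edgeR adjusted p = 0.573). Against PBS it was 0.64 ± 0.16 for ATEV, 0.39 ± 0.16 for DNase-treated ATEV (edgeR adjusted p = 0.782) and 0.43 ± 0.16 for NTEV (edgeR adjusted p = 0.177). As fold change, though not in CPM, Serpinb6a thus spanned a far narrower range between groups than Serpina3f and Serpina3g.

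Serpinb6b, a neighbour of Serpinb6a known in mice as an inhibitor of granzyme A, had its highest libraries with NTEV. It had 32.4, 35.3 and 41.8 CPM with DNase-treated ATEV, against 26.8, 41.1 and 35.8 CPM with ATEV. It had 33.5, 45.9 and 64.3 CPM with NTEV and 21.7, 36.3 and 33.2 CPM with PBS. All pairs of groups overlapped.

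The Serpinb6b log2 fold change was 0.08 ± 0.24 between DNase-treated ATEV and ATEV (edgeR adjusted p = 0.906) and -0.47 ± 0.24 between ATEV and NTEV (edgeR adjusted p = 0.418). Against PBS it was 0.18 ± 0.25 for ATEV, 0.27 ± 0.25 for DNase-treated ATEV (edgeR adjusted p = 0.837) and 0.65 ± 0.25 for NTEV (edgeR adjusted p = 0.172). The sign between DNase-treated ATEV and ATEV turned without the third DNase-treated ATEV library (-0.03) and without the first ATEV library (-0.07). Without the first NTEV library, the library that lay among the PBS libraries, Serpinb6b and Serpinb6a were both called higher with NTEV than with PBS, at log2 fold changes of 0.87 (edgeR adjusted p = 0.031) and 0.58 (edgeR adjusted p = 0.0337). Serpinb6b was also called in that comparison with no filter on low counts (edgeR adjusted p = 0.0323).

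The coding sequences of Serpinb6a and Serpinb6b were 86.3% identical, yet only 1.52% and 3.07% of their 50-base words occurred in another gene. The summed Serpinb6 counts differed between NTEV and PBS by a log2 fold change of 0.46 ± 0.17 (edgeR adjusted p = 0.168) and between DNase-treated ATEV and ATEV by -0.22 ± 0.17 (edgeR adjusted p = 0.55). Without the first NTEV library the sum was called higher with NTEV than with PBS, at 0.62 (edgeR adjusted p = 0.0303).

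Serpinb2, plasminogen activator inhibitor 2, which inhibits urokinase and is known as a strongly inducible gene of macrophages, had few counts in these cells. It had 0 counts in each DNase-treated ATEV library, against 2, 5 and 3 counts with ATEV. It had 2, 0 and 2 counts with NTEV and 2, 2 and 0 counts with PBS. Over the groups, the 10 counts with ATEV were 3.48-fold the floor of 3 counts over the DNase-treated ATEV group. That value is not a lower bound, because the 10 counts have a 95% counting interval of 4.8 to 18.4. The ratio of ATEV to NTEV was 2.94 (0.847 to 12.8 as the 95% interval), and that of ATEV to PBS was 2.76 with an interval of 0.796 to 12.0. Both intervals include equality, and the gene did not pass the filter on low counts.

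Of the 7 genes, 5 were thus tested, Serpina3f only through its ATEV counts. Between DNase-treated ATEV and ATEV, Serpina3f and Serpina3g were called lower by edgeR, 2 of 5, where 1.32% of 13261 tested genes were called lower; the same 2 lay lower without overlap, as did 10.1% of all genes. Between ATEV and NTEV the same 2 were called higher, where 0.875% of all tested genes were, and lay higher without overlap, as did 8.61%. Nothing is read from these shares, because Serpina3f entered the tests through its ATEV counts and the genes were listed with ATEV values known. Between ATEV and PBS, 4 of 5 had no overlap and lay higher with ATEV (all but Serpinb6b), against 16.3% of all genes, from which nothing is read because the genes were listed with those values known. Serpina3g kept its calls against DNase-treated ATEV and NTEV when any 1 library of the groups compared was left out (edgeR adjusted p up to 0.0112).

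Between DNase-treated ATEV and PBS, edgeR called 0 of the 5 genes and 0% of all tested genes. At an unadjusted p under 0.05 there were 2 of 5, and 5.96% of all tested genes, while DESeq2 called 0 and limma-voom called 0. These 2 were Serpinb6a and Serpina3f, the latter on 4 counts against 0 and tested only through its ATEV counts. Serpinb9 and Serpinb6a, 2 of 5, lay higher than PBS without overlap, as did 7.69% of all tested genes. Between NTEV and PBS, edgeR called 0 of 5, against 2.31% of all tested genes, with 2 of 5 at an unadjusted p under 0.05, where 19.1% of all tested genes were, and 0 called by DESeq2 and by limma-voom. None of the 5 was free of overlap between NTEV and PBS, where 12.8% of all tested genes lay higher and 11.1% lower without overlap. Serpina3f had 0 counts in both groups, so it could be neither called nor free of overlap there.

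**Figure D2:**
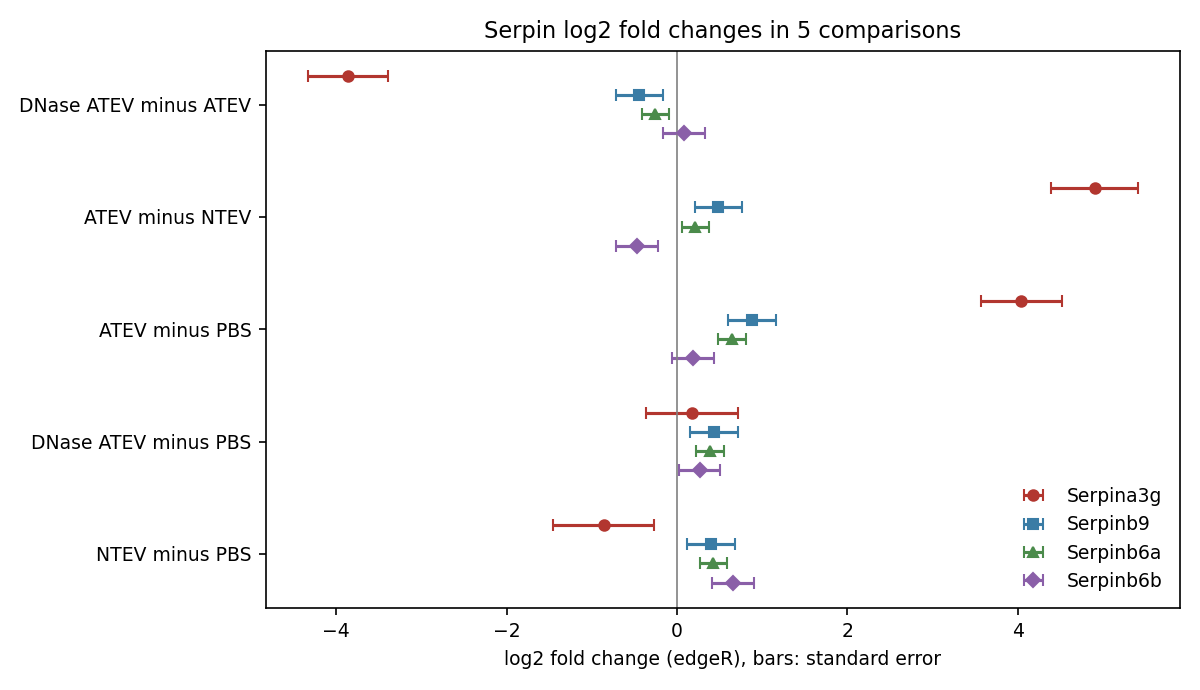
Log2 fold changes of the tested serpin genes other than Serpina3f, whose counts were 0 with NTEV and PBS, in each comparison from edgeR, with bars of 1 standard error on a linear log2 axis; the group named first is on top of the fold change. Serpina3g is at -3.87 between DNase-treated ATEV and ATEV and at 4.91 between ATEV and NTEV, while Serpinb9, Serpinb6a and Serpinb6b stay within 1 unit of 0.

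Levels were also divided by exon length, counted as all bases in an exon of any annotated transcript of the gene. Per kilobase, Serpinb6a came first in each group. It had 55.7 CPM per kb with DNase-treated ATEV, 66.4 with ATEV, 57.2 with NTEV and 42.5 with PBS. Serpinb6b followed with 16.1, 15.3, 21.2 and 13.4 CPM per kb in the same order of groups. In ATEV cells Serpina3g, at 3.74 CPM per kb, exceeded Serpinb9, at 2.79 CPM per kb, whereas in PBS cells Serpina3g was at 0.222 and Serpinb9 at 1.51 CPM per kb. The order in ATEV cells depends on the lengths used, 2105 bases for Serpina3g and 3494 for Serpinb9. Before that division Serpina3g averaged 7.88 CPM and Serpinb9 9.74 CPM there, with overlapping libraries. Serpina3f reached 2.12 CPM per kb with ATEV. Serpinb2 and Serpina3n stayed below 0.1 CPM per kb in every group.

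Among 60 other genes with a Serpin symbol, 33 had no count in any library and 7 were tested. Serpinf1, which encodes the secreted factor PEDF, a serpin without known protease inhibition, was highest in PBS cells. It had 9.77, 12.1 and 19.6 CPM with DNase-treated ATEV, 12.5, 7.64 and 10.5 CPM with ATEV, 6.10, 1.96 and 4.42 CPM with NTEV and 20.7, 27.3 and 31.8 CPM with PBS. All PBS libraries lay above all others. The log2 fold change was -2.67 ± 0.37 between NTEV and PBS (edgeR adjusted p = 0.00434) and -1.38 ± 0.35 between ATEV and PBS (edgeR adjusted p = 0.0424). The ATEV call was lost without ATEV replicate 2, ATEV replicate 3 or any 1 PBS library (edgeR adjusted p up to 0.163), and the NTEV call had an adjusted p of 0.0516 when these 2 groups were fitted alone.

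Serpinf1 was the only 1 of these 7 called by edgeR, lower between ATEV and PBS and lower between NTEV and PBS, where 1.42% and 0.611% of all tested genes were called lower. In each of the 3 remaining comparisons edgeR called 0 of 7. At an unadjusted p under 0.05 there were 2 of 7 between DNase-treated ATEV and ATEV, 3 of 7 between ATEV and NTEV and 1 of 7 between DNase-treated ATEV and PBS, where 15.2%, 13.4% and 5.96% of all tested genes were. DESeq2 called 1 of 7 between ATEV and NTEV, where it also called more genes than edgeR over the whole table. It called 0 in the other pair, and limma-voom called 0 in all 3. Serpinb1a, an intracellular inhibitor of neutrophil elastase, averaged 46.2 CPM with DNase-treated ATEV, 59.3 with ATEV, 92.9 with NTEV and 62.6 with PBS, and Serpinb8 averaged 8.02, 12.5, 9.88 and 8.71 CPM in the same order of groups.

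**Figure D3:**
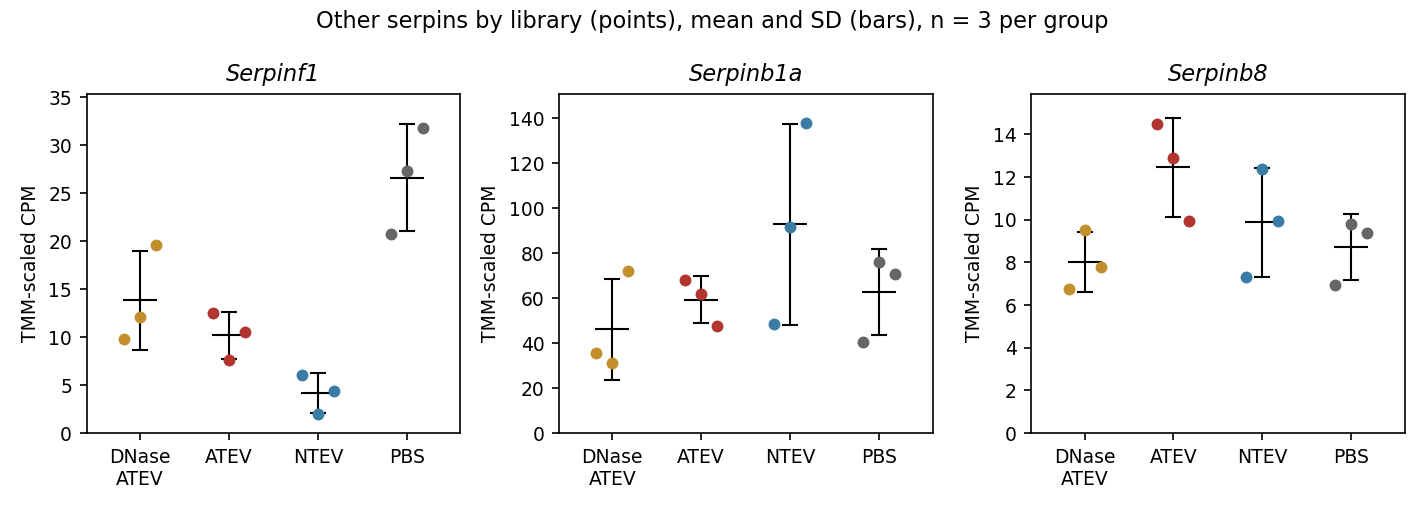
Levels in CPM of serpin genes outside the set in each library on linear axes, with groups from DNase-treated ATEV to PBS, points for libraries, wide lines for group means and whiskers for 1 SD (n = 3). The PBS libraries of Serpinf1 (20.7 to 31.8 CPM) lie above every other library.

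Of the genes for proteases that these serpins are known to inhibit, some had no count in any library, Gzma and Gzmb among them. The list of 17 genes was chosen with earlier results of these data known. It also holds proteases not given here as targets of a member, such as Gzmc and Elane. The pore-forming protein Prf1, also listed, is not a protease. Of the 17, 9 had no count in any library, Prf1 among them, and 4, all proteases, were tested. Those 9 are therefore not all known targets of the set. Ctsb, the cathepsin that Serpina3g can inhibit, averaged 2720 CPM with DNase-treated ATEV, 3670 with ATEV, 3710 with NTEV and 2620 with PBS. Ctsl averaged 2370, 2140, 2390 and 2320 CPM in the same order. Neither cathepsin was called by edgeR in any comparison. DESeq2 called 2 of the 4 proteases between ATEV and PBS, where it also called more genes than edgeR over the whole table.

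Plau, the urokinase that Serpinb2 inhibits, had 473, 475 and 544 CPM with DNase-treated ATEV, 697, 924 and 713 CPM with ATEV, 428, 575 and 893 CPM with NTEV and 245, 454 and 434 CPM with PBS. The ATEV libraries lay above those of PBS and of DNase-treated ATEV. Plau was the 1 protease called by edgeR, higher with ATEV than with PBS (log2 fold change 1.04 ± 0.27, edgeR adjusted p = 0.0432), where 3.32% of all tested genes were called higher. That call was lost without ATEV replicate 2, ATEV replicate 3 or any 1 PBS library, with edgeR adjusted p-values up to 0.159.

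In the other comparisons edgeR called 0 of the 4 proteases. At an unadjusted p under 0.05 there were 2 of 4 between DNase-treated ATEV and ATEV, 0 between ATEV and NTEV, 0 between DNase-treated ATEV and PBS and 2 between NTEV and PBS, beside 15.2%, 13.4%, 5.96% and 19.1% of all tested genes. DESeq2 called 1 in the last of these, where it also called more genes than edgeR over the whole table. It called 0 in the others, and limma-voom called 0 in all.

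Genes for transcription factors known to drive interferon and inflammatory programmes were in part highest with ATEV, as the Serpina3 genes were. Of 11 listed, all were tested, and 5 were called higher with ATEV than with PBS, 3 lower with DNase-treated ATEV than with ATEV and 3 higher with ATEV than with NTEV, where 3.32%, 1.32% and 0.875% of all tested genes were called. Nothing is read from these shares, because the list was chosen with earlier results of these data known. The p-values of its genes are for the same reason not independent evidence. Between NTEV and PBS, 1 was called higher, Nfkb2 (log2 fold change 0.83 ± 0.18, edgeR adjusted p = 0.0324), as were 1.70% of all tested genes. Between DNase-treated ATEV and PBS edgeR called 0, and DESeq2 and limma-voom called 0. At an unadjusted p under 0.05 there was 1 of 11, beside 5.96% of all tested genes. The list's median log2 fold change was -0.70 between DNase-treated ATEV and ATEV, 0.02 between ATEV and NTEV and 0.55 between ATEV and PBS, beside medians over all tested genes of 0.00, -0.01 and 0.03.

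Irf1, an interferon-inducible transcription factor, had 20.5, 29.0 and 30.2 CPM with DNase-treated ATEV and 120, 127 and 122 CPM with ATEV. It had 9.59, 24.5 and 16.6 CPM with NTEV and 11.1, 12.2 and 28.5 CPM with PBS, and the ATEV libraries stood apart from all others, as those of Serpina3g did. Irf1 differed by -2.21 ± 0.36 between DNase-treated ATEV and ATEV (edgeR adjusted p = 0.00565) and by 2.83 ± 0.37 between ATEV and PBS (edgeR adjusted p = 0.000786). Irf7, which amplifies type I interferon production, had 5.05, 3.93 and 4.42 CPM with DNase-treated ATEV and 19.1, 12.0 and 11.4 CPM with ATEV. It had 3.55, 5.68 and 3.83 CPM with NTEV and 3.91, 2.91 and 3.19 CPM with PBS, so its ATEV libraries did not overlap those of any other group.

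Irf7, Irf9, Stat2 and Irf8 were the other factors called between ATEV and PBS, with log2 fold changes of 2.08 ± 0.26, 1.45 ± 0.23, 1.25 ± 0.29 and 0.55 ± 0.13 (edgeR adjusted p from 0.000561 to 0.0322). Irf1 and Irf7 kept each of their calls when any 1 library was left out, whereas Irf8, Stat2 and Nfkb2 each lost a call (edgeR adjusted p up to 0.176 for Irf8) and Irf9 lost its call against NTEV without the third NTEV library (edgeR adjusted p = 0.0815). Macrophage markers summed to 3400 to 3720 CPM with DNase-treated ATEV, 5040 to 8620 CPM with ATEV, 5370 to 5870 CPM with NTEV and 3540 to 4230 CPM with PBS. Lyz2 made up much of that sum, at 3860 ± 1480 CPM with ATEV and 1660 ± 217 CPM with PBS (SD, n = 3 each). Not all members of the list followed that sum. Mrc1 averaged 0.575 CPM with ATEV, 0.528 CPM with NTEV and 1.86 CPM with PBS, and was called lower than PBS in both (edgeR adjusted p = 0.0292 with ATEV and 0.0308 with NTEV). C1qc averaged 142 CPM with ATEV, 10.4 CPM with NTEV and 37.8 CPM with PBS. The median log2 fold change of the list was 0.62 between ATEV and PBS and 0.07 between NTEV and PBS. The part of these markers in the serpin values was not tested.

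**Figure D4:**
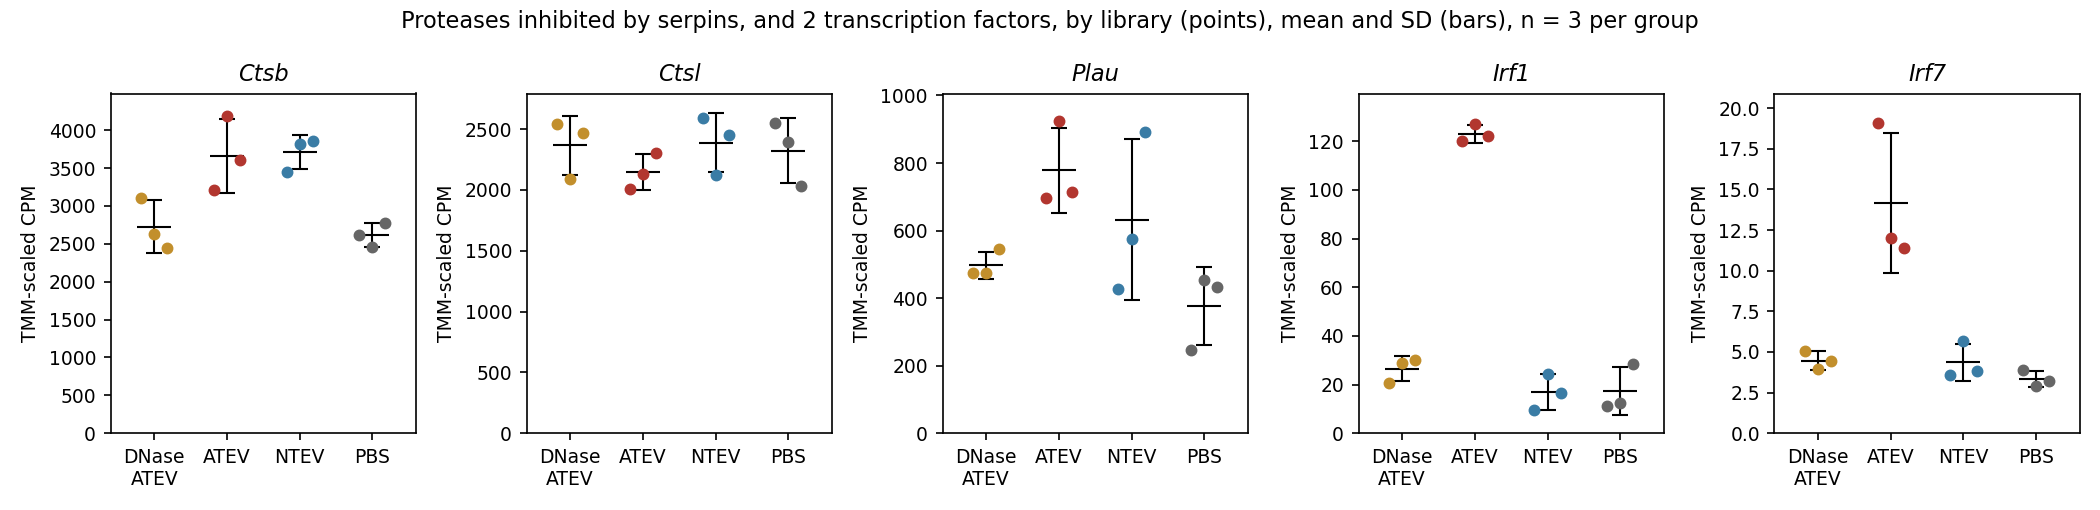
Levels in CPM of listed proteases and of transcription factor genes in each library on linear axes. Groups run from DNase-treated ATEV to PBS, points are libraries, wide lines are group means and whiskers are 1 SD (n = 3). The ATEV libraries of Irf1 (120 to 127 CPM) and Irf7 (11.4 to 19.1 CPM) lie above all others.

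Profiles over the 12 libraries were compared by Pearson's r of log2 CPM among 10573 tested genes with a mean of at least 1 CPM, as a description without a test, since the libraries share groups. Serpina3f came nearest to Tgtp2 (r = 0.998), Iigp1 (r = 0.981) and Gbp2 (r = 0.98), which encode interferon-inducible GTPases. Tgtp2 averaged 0.0599 CPM with DNase-treated ATEV, 16.1 CPM with ATEV and 0 CPM with NTEV and PBS. Serpina3g came nearest to Ifi47 (r = 0.972), another GTPase of that family, to Serpina3f (r = 0.97) and to Ly6a (r = 0.967), the surface antigen Sca-1. For these genes r rests mainly on the gap between the ATEV libraries and the rest.

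The clade B genes had other neighbours. Serpinb9 came nearest to Clic1 (r = 0.94), S100a8 (r = 0.93) and P2ry10b (r = 0.887). Serpinb6a came nearest to Mpc1 (r = 0.969), a subunit of the mitochondrial pyruvate carrier, Dynlt3 (r = 0.963) and Serhl (r = 0.957). Serpinb6b came nearest to Cd99l2 (r = 0.926), Mfsd9 (r = 0.885) and Tiam2 (r = 0.882). No gene appeared among the nearest 3 of more than 1 member.

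**Figure D5:**
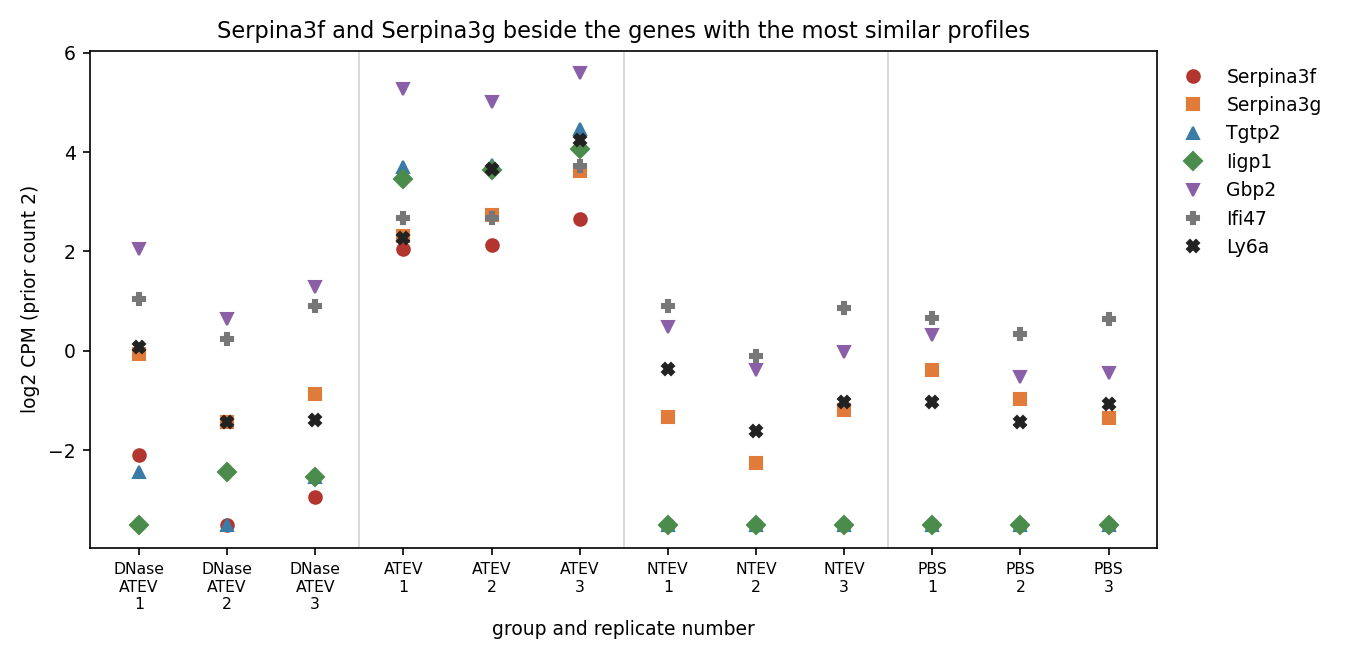
Log2 CPM (prior count 2) of Serpina3f, Serpina3g and the genes whose profiles are most like theirs, in each of the 12 libraries from DNase-treated ATEV to PBS. Every gene shown is highest in the 3 ATEV libraries, and Serpina3f, Tgtp2 and Iigp1 sit at the lowest value, for 0 counts, in all NTEV and PBS libraries.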

How the data were processed

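Whole-number counts per gene were analysed as the authors deposited them, with no normalization visible in the values. Upstream steps used Cufflinks 2.1.1, TopHat, TopHat2 2.0.11, bcl2fastq 2.19 and the build mm9, per the submitters' processing notes. A TruSeq stranded kit was used, per the labels' protocols. Counter, annotation and strand setting: not given in the sources used here. Reads of overlapping, antisense or near-identical genes may therefore be assigned to either. Of 42687 identifiers, 42250 matched GENCODE M21 symbols, and no coordinates are printed for the counts.

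Counts were fitted in R 4.3.3 with edgeR 4.0.16 (filterByExpr by group, minimum count 10 and total 15; TMM; quasi-likelihood F test; 1 mean per group over all 12 libraries, common biological coefficient of variation 0.183). Tests are two-sided, adjusted by Benjamini-Hochberg over 13261 genes, with calls at an adjusted p under 0.05. Standard errors are derived from the F statistic. DESeq2 1.42.0, limma-voom (limma 3.58.1), RLE scaling, no filter, 2 groups alone, a replicate block and leaving out each library were alternatives. The fit was tested on simulated data. Floors (3 counts over a group) and 95% intervals cover counting error only. Replicates differed beyond counting noise (14.8 to 131.9 for chi-square over degrees of freedom).

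The members and gene lists were chosen with earlier results of these data known. Named genes are the members; other serpins and list members called in any comparison or averaging at least 10 CPM; and the 3 genes most like each tested member, leaving out predicted genes and clone names. Some genes that meet this rule are not reported here and stay out of the list counts. Genes named outside it are list members given as defining markers or as having 0 counts.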

Additional observations from a re-analysis of the deposited data

How the results depend on the processing

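Over the table, calls with no filter on low counts were 394 (DNase-treated ATEV against ATEV), 242 (ATEV against NTEV), 1317 (ATEV against PBS), 47 (DNase-treated ATEV against PBS) and 876 (NTEV against PBS), and with DESeq2 495, 370, 1518, 35 and 839 in that order, against 194, 124, 628, 0 and 306 as reported. With 2 groups fitted alone, ATEV against NTEV gave 82, ATEV against PBS 1245 and NTEV against PBS 19. Leaving out each library gave 78 to 522, 70 to 302, 169 to 849, 0 to 8 and 34 to 1685 calls in the order above. The cause was not tested. Of the serpin genes, 2 were called in each fit between DNase-treated ATEV and ATEV and between ATEV and NTEV. Nothing is read from this for Serpina3f, whose high ATEV counts led to its listing. Between DNase-treated ATEV and PBS 0 were called in each fit. Between NTEV and PBS 1 was called with no filter and 0 to 2 when a library was left out. Values that turned sign did so when a library was left out, and ranged from -0.34 to 0.57 for Serpina3g and -0.25 to 0.72 for the summed Serpina3 counts (DNase-treated ATEV against PBS), -0.072 to 0.23 for Serpinb6b (DNase-treated ATEV against ATEV) and -0.007 to 0.27 for the summed Serpinb6 counts (ATEV against NTEV), all as log2 fold changes. The replicate numbers did not pair the libraries, with correlations of same-numbered libraries from -0.382 to 0.519; with the replicate block ATEV against PBS gave 1440 calls and DNase-treated ATEV against PBS 1, and no count of serpin genes changed, while the summed Serpinb6 counts were called between NTEV and PBS (edgeR adjusted p = 0.0434). Depth limits Serpina3n and Serpinb2, whose groups held at most 10 counts.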
